A study of Mus musculus with 12 samples.

Results

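The baseline transcriptome of alveolar epithelial type 2 cells (AEC2) was read from the 4 libraries labelled SP-C WT, chosen by their genotype label out of 12 libraries in the series, and from all 16080 genes measured in each of them. The mice were female, of strain Bl6 and 56 days old (P56), and carried the unedited surfactant protein C (SP-C) gene. Tamoxifen had been injected intraperitoneally at 200 mg/kg on 2 days, and cells were isolated on day 7, so the levels describe wild-type AEC2 after tamoxifen and not untouched lung. The study used these libraries as a control for an inducible SP-C mutation, and the other genotypes were not analysed here. AEC2 were freed from perfused lungs by Dispase, mechanical dissociation and DNase I. Adherent mesenchymal cells and CD45-positive blood cells were then removed, and no positive selection for AEC2 was named. The labels do not say whether each library came from its own animal, so the spread between libraries may be biological or technical.

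AEC2 are cuboidal cells of the alveolus that make, store and secrete surfactant, the film of phospholipid and protein that lowers surface tension at the air interface. Surfactant lipid is packed into lamellar bodies, lysosome-related organelles whose membrane holds the lipid transporter ABCA3, and the small hydrophobic proteins SP-B and SP-C are cut from larger precursors on the way there. AEC2 also secrete the collectins SP-A and SP-D and other defence proteins, move sodium and phosphate, and act as progenitors of the flat type 1 cells that cover most of the alveolar surface.

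The libraries held 18156882, 18166159, 18234353 and 16328539 counts over the measured genes, and 4 to 7 genes per library had no count. Levels are given as normalized CPM, that is, counts on the authors' scaling put on a CPM scale by the mean of the 4 scaled totals. A share of counts is the percentage of a library's counts over all measured genes. Long genes collect more reads, so CPM and shares of counts are not adjusted for length. Levels of different genes were compared as counts per base of exon scaled to one sum (TPM) over the genes with a symbol. Transcripts of the mitochondrial genome and of red-cell globins were not among the measured genes, so every share is a share of the rest. All 10 AEC2 markers looked for were measured. The 5 of them that were given together with the choice of libraries (Sftpc, Sftpa1, Lyz2, Abca3 and Hc) were all among the 25 genes of largest share.

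The 5 genes of largest share were Sftpb, Scd1, Sftpc, Sftpa1 and Lyz2, that is, 3 surfactant proteins, a fatty acid desaturase and lysozyme. Together the top 5 took 3.46% ± 0.207 of all counts and the top 25 took 9.35% ± 0.296 (SD, n = 4 libraries). The largest single share, that of Sftpb, was 0.768% ± 0.0368. The 100 genes of largest share held 18.1% ± 0.358 of the counts and included 99 protein-coding genes. Protein-coding genes, 13970 in number, held 98.4% ± 0.0753 of the counts.

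**Figure D1:**
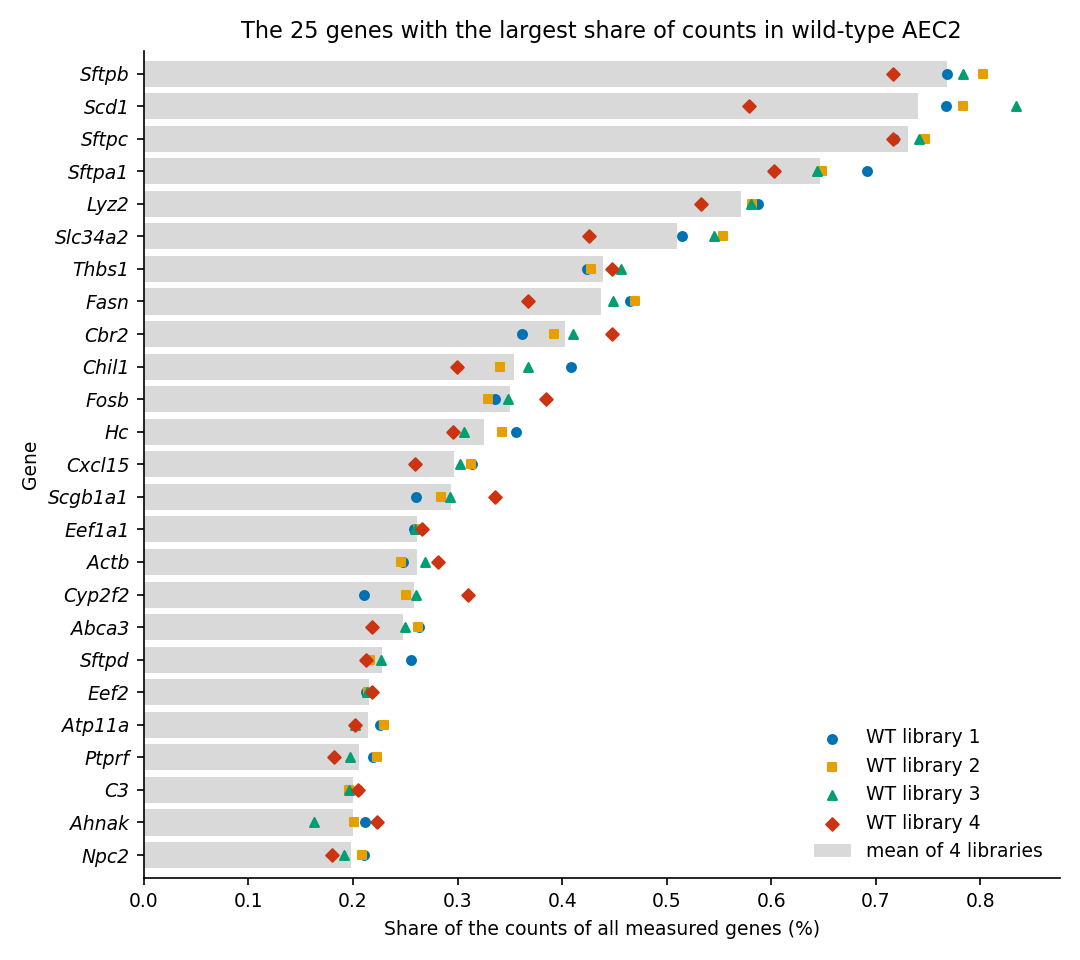
Share of the counts of all measured genes (horizontal axis, %) for the 25 genes of largest mean share; grey bars are means of the 4 WT libraries and coloured points are single libraries. Sftpb led with a mean of 0.768%, and for Scd1 the point of WT library 4 lies apart from the other 3.

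The counts were spread over many genes. It took 1009, 1029, 1052 and 1069 genes to reach 50% of the counts in WT libraries 1, 2, 3 and 4, and 28, 28, 28 and 32 genes to reach 10%. To reach 90% took 5895 to 6050 genes. The 4 curves of cumulative share lay close together, with WT library 4 slightly lower over the most abundant genes.

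**Figure D2:**
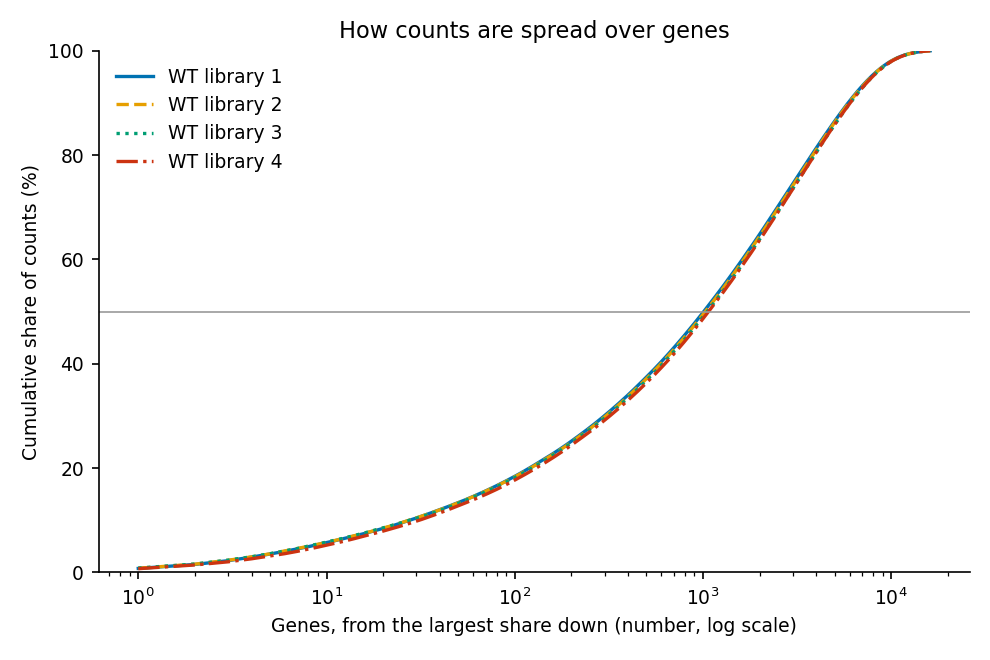
Cumulative share of counts (vertical axis, %) against the number of genes taken from the largest share down (horizontal axis, log scale), 1 line per WT library. The grey line marks 50%, which the libraries reached at 1009 to 1069 genes.

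Promoter sequence is shown for 5 abundant genes (Sftpb, Sftpa1 and Lyz2, which encode secreted proteins, the lipid transporter gene Abca3 and the carbonyl reductase gene Cbr2), so that their start regions can be read side by side. The bases come from RefSeq (GRCm38.p6), 5′ to 3′ on the gene's strand. They run from 250 bases before the RefSeq start up to that start, or to the start in the GENCODE annotation where it lies earlier. The stretch thus ends 6 bases before the RefSeq start for Sftpa1, 49 for Lyz2, 93 for Cbr2 and 73 for Abca3. Bases past that end are not shown or marked. Capitals mark 3 motifs, each searched on both strands. The first is TATAAA, the TATA box, which reads TTTATA on the opposite strand. The next is CAAGTG, a core of sites of the NKX2 family, which reads CACTTG on the opposite strand. The last is TGTTTNC, a core of forkhead sites, which reads GNAAACA on the opposite strand. No matches overlapped in these windows. Sftpb lies at chr6:72304360-72304609 (plus strand), Sftpa1 at chr14:41131538-41131781 (plus), Lyz2 at chr10:117282322-117282522 (minus), Cbr2 at chr11:120732115-120732271 (minus) and Abca3 at chr17:24351773-24351949 (plus).
Sftpb: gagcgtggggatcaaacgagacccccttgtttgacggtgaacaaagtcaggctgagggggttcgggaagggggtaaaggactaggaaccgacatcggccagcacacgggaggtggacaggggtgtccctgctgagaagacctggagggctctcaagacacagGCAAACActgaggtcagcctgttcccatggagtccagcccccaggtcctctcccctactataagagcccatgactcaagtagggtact
Sftpa1: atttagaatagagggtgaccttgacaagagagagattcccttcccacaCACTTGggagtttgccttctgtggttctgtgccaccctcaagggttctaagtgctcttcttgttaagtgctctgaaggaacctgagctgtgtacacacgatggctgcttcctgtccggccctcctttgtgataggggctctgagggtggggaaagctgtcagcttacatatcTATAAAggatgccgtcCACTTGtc
Lyz2: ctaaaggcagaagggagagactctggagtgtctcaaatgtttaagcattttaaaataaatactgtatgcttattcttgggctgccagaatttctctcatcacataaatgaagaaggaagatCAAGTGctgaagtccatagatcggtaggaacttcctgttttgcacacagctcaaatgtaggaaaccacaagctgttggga
Cbr2: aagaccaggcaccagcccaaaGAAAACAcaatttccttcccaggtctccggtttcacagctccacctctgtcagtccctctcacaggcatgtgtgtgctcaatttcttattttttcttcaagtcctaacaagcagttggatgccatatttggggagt
Abca3: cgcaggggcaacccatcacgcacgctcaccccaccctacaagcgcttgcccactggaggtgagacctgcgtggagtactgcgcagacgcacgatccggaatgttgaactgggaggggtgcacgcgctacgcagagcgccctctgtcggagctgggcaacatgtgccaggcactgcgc

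In these windows Sftpa1 held TATAAA 30 bases before the RefSeq start and CACTTG at 202 and 14 bases before it. Sftpb held a forkhead core at 88 bases, Lyz2 CAAGTG at 129 bases and Cbr2 a forkhead core at 229 bases before the start. The Abca3 window, which ends 73 bases before the RefSeq start, held none of the 3. Of the 100 genes of largest TPM, 72 had an entry in the RefSeq promoter table. Within the full 250 bases before the RefSeq start, TATAAA stood in 13.9% of these (10 of 72) and in 6.89% of the 11463 promoters matched to measured genes. With the 50 bases after the start included, the shares were 26.4% (19 of 72) and 7.65%. CAAGTG stood in 13.9% against 9.52%, the forkhead core in 9.72% against 13.1% and CCAAT in 36.1% against 35.6% of all matched promoters. These matches are letters and not shown to be bound.

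Per base of exon the order changed. Sftpc had the highest level of any protein-coding gene, with 24434, 25527, 24761 and 24121 TPM in WT libraries 1 to 4 (24711 ± 604, SD, n = 4). Sftpc (ENSMUSG00000022097; minus strand, chr14:70520949-70524081 in GRCm38) encodes a precursor that is anchored in the membrane before it is cut to the short SP-C peptide. Scgb1a1 followed with 21548 ± 2217 TPM; it encodes the secretoglobin of club cells, the secretory cells of the conducting airways, and its range over libraries (19232 to 24568) overlapped that of Sftpc. Lyz2 (15172 ± 742), which encodes a lysozyme that kills bacteria, and Sftpb (13646 ± 720), which encodes the SP-B precursor, overlapped each other in range and stood below Scgb1a1. Cbr2, a carbonyl reductase of the lung, had 10615 ± 885 TPM, and Sftpa1, the collectin SP-A, 7911 ± 492, each apart from its neighbours in the order.

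From there down neighbours overlapped. Scd1, the desaturase that makes monounsaturated fatty acids, had 5297 ± 801 TPM, Cxcl15, the lung chemokine also called lungkine, 4887 ± 451, Cyp2f2, a cytochrome P450 of airway cells, 4451 ± 680, and Chil1, a chitinase-like secreted protein, 4415 ± 585. The positions of Lyz2 and Sftpb depended on the length used: with the longest transcript of each gene Sftpb had 13649 and Lyz2 11945 TPM. The order below Sftpa1 depended on it too: Chil1 (5300 TPM) followed Sftpa1 with the longest transcript, and Sftpd, the collectin SP-D (4962 TPM), with coding transcripts. Highest of all features was Gm23935, named here after its values were seen, with 33055 ± 426 TPM but only 0.0539% of counts. It is annotated as a microRNA gene of 57 bases on chromosome 16 from 11144125 to 11144181 on the plus strand, and its TPM rests on that short length. Lyz1 and Lyz2 are near-identical copies, and how reads were shared between them is not given, so the level of each is uncertain.

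The 4 surfactant proteins took 2.37% ± 0.0841 of the counts. Sftpc had 7292, 7507, 7366 and 7054 normalized CPM in the 4 libraries, and its coefficient of variation (CV, SD over mean) was 2.59%. Sftpb had 7800, 8072, 7787 and 7058 normalized CPM and a CV of 5.66%. Sftpa1 had 7029, 6521, 6397 and 5934, with WT library 4 lowest. Sftpd had 2598, 2175, 2255 and 2092 and was highest in WT library 1. The summed level was 24718, 24276, 23805 and 22138 normalized CPM, and all 4 genes were lowest in WT library 4, where 31.0% of the 11219 genes with a mean of at least 100 counts were lowest. With quantile normalization, under which all libraries share one distribution of values, WT library 4 had the highest sum instead.

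Genes of the lamellar body and of precursor processing took 1.97% ± 0.159 of the counts. Abca3, the lipid pump of the lamellar body membrane, had 2672, 2638, 2480 and 2150 normalized CPM. Lamp3, a lamellar body membrane protein, had 2174, 2093, 1838 and 1611, and Npc2, which carries cholesterol out of lysosomes, 2143, 2097, 1900 and 1776. Lpcat1, which remodels surfactant phosphatidylcholine, had 2027, 1962, 1826 and 1504. Napsa, the aspartic protease that cuts the SP-B precursor, had 850, 835, 755 and 648. Each of these 5 genes was highest in WT library 1 and lowest in WT library 4. Over the list, 14 of 20 genes with at least 100 counts were highest in WT library 1, where 25.2% of all such genes were highest. In WT library 4, 14 of 20 were lowest, against 31.0% of all such genes. Vacuolar ATPase subunits, which acidify these organelles, took 0.234% ± 0.0112.

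Fatty acid and phospholipid synthesis took 2.06% ± 0.217 of the counts over 34 genes. Adjusted for exon length, the list summed to 12973 TPM, against 49565 TPM for the 4 surfactant proteins. Scd1 had 7791, 7877, 8293 and 5697 normalized CPM, and Fasn, fatty acid synthase, 4720, 4719, 4459 and 3621, both with WT library 4 below the other 3. Without WT library 4, the CV beyond counting error was 3.35% for Scd1 in place of 15.7%, and 3.23% for Fasn in place of 11.9%. Acly, which supplies cytosolic acetyl-CoA, had 1205, 1170, 989 and 906. Elovl1, an elongase of very long chains, had 1071, 1189, 847 and 695. The list summed to 22128, 22129, 21234 and 17144 normalized CPM. Of 31 genes with at least 100 counts, 21 were lowest in WT library 4, against 31.0% of all such genes. That library was also the lowest for this sum under library totals, median of ratios and quantile normalization.

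Cholesterol synthesis followed another order over the libraries. Its 25 genes took 0.413% ± 0.0501 of the counts and summed to 4742, 4474, 3647 and 3685 normalized CPM, so that WT libraries 1 and 2 lay above WT libraries 3 and 4. Hmgcs1, which starts the pathway, had 560, 496, 329 and 379. Insig1, which holds back the sterol-sensing transcription factors, had 510, 463, 309 and 349, and Stard4, a sterol carrier, 128, 122, 70.5 and 92.2. Of 24 genes with at least 100 counts, 16 were highest in WT library 1, against 25.2% of all such genes. Srebf2, the transcription factor of the pathway, varied less, with 567, 548, 556 and 526.

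Secreted defence proteins other than the collectins took 1.77% ± 0.132 of the counts. Lyz2 had 5965, 5852, 5774 and 5249 normalized CPM, Chil1 4149, 3420, 3654 and 2946, and Cxcl15 3193, 3145, 3001 and 2554. Lcn2, which binds bacterial siderophores, had 1180, 791, 969 and 733. WT library 4 was the lowest for all 4, as it was for 31.0% of all genes with at least 100 counts. The small inducible members were less even: 6 of 20 genes with at least 100 counts had a CV beyond counting of 30% or more, a mark that 1.14% of all 11219 such genes passed. CV beyond counting is the CV left after the variance of random counting is taken off. Ccl20, a chemokine for dendritic cells and lymphocytes, had 6.88, 4.26, 21.4 and 9.41 and was highest in WT library 3, where 27.3% of all genes tested were highest. Bpifa1, an airway defence protein, had 8.34, 43.2, 16.9 and 27.9 and was highest in WT library 2, the highest library for 21.6% of genes.

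Complement was represented by Hc and C3 above all. Hc, which encodes complement component C5 and marks mouse AEC2, had 3613, 3440, 3047 and 2914 normalized CPM. C3, the central component that labels targets, had 2077, 1970, 1948 and 2013, a CV of 2.83%. C6, a part of the membrane attack complex, had 253, 220, 240 and 180. The 17 measured of 23 complement genes took 0.689% ± 0.0258 of the counts.

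Antigen presentation genes of both classes were present. MHC class II took 0.247% ± 0.0167, with Cd74, its invariant chain, at 1584, 1487, 1393 and 1314 normalized CPM and H2-Ab1, a beta chain, at 369, 357, 355 and 309. All 7 class II genes with at least 100 counts were lowest in WT library 4, where 31.0% of all such genes were lowest. Ciita, the class II transactivator, had 28.4, 35.8, 21.7 and 20.4. MHC class I and peptide loading took 0.272% ± 0.0229, led by H2-K1 with 1018, 812, 900 and 811. H2 genes are similar in sequence, so the split among them is uncertain. Ptprc, which encodes CD45 of blood cells, was at 8.84, 8.58, 7.14 and 6.03 normalized CPM in the same libraries, and its part in these sums was not tested.

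Transport and epithelial structure genes varied little as groups. Slc34a2, the sodium-phosphate cotransporter of AEC2, which was counted with the lamellar body list, had 5225, 5566, 5416 and 4192 normalized CPM, with WT library 4 apart from the rest. Ion and fluid transport genes took 0.709% ± 0.00859 in all. Atp1b1, the beta subunit of the sodium pump, had 1134, 1113, 1204 and 1163. Among subunits of the epithelial sodium channel, Scnn1a had 630, 585, 690 and 722, whereas Scnn1g varied more with 42.7, 27.2, 35.2 and 63.2 (CV beyond counting 36.5%, and 21.7% without WT library 4). Junction genes took 0.981% ± 0.0159, and Cdh1, E-cadherin, had 1418, 1365, 1339 and 1368. Keratins took 0.422% ± 0.0202, mainly through Krt8 (1748, 1689, 1639 and 1847) and Krt18 (1010, 974, 936 and 1030), the filament pair of simple epithelia.

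Lung epithelial transcription factors and their signals took small shares. The 40 measured transcription factor genes took 0.732% ± 0.0196 of the counts. Klf4 had 477, 440, 436 and 414 normalized CPM, and Cebpa, a factor of AEC2 maturation, 570, 572, 579 and 484. Etv5, a target of FGF signalling that keeps AEC2 identity, had 840, 834, 684 and 575 and was lower in WT libraries 3 and 4. Fgfr2, the receptor of that signal, had 844, 817, 794 and 642. Axin2, a target of Wnt signalling, was at 22.7, 28.1, 28.8 and 17.6. The cell cycle list of 32 genes summed to only 353, 365, 327 and 331 normalized CPM, with Mki67, a proliferation marker, at 13.5, 14.7, 6.49 and 12.3.

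The general machinery of the cell varied little between libraries. Translation factors took 1.34% ± 0.00649 of the counts, with Eef2, the elongation factor that moves the ribosome, at 2162, 2158, 2125 and 2149 normalized CPM and Eef1a1, which delivers aminoacyl-tRNA, at 2625, 2640, 2575 and 2622. The 82 cytosolic ribosomal protein genes took 1.67% ± 0.0416, and the median CV beyond counting of those with at least 100 counts was 1.99%, against 5.30% over all 11219 genes. Of 81 such genes, 50 were highest in WT library 3, where 27.3% of all 11219 genes were highest. Housekeeping references took 0.942% ± 0.0195, endoplasmic reticulum chaperones 0.775% ± 0.0211 and actin cytoskeleton genes 1.59% ± 0.0450. Hspa5, the main chaperone of the endoplasmic reticulum, had 1217, 1146, 1201 and 1067. Ribosomal protein genes, Eef1a1 and Actb have many processed copies in the genome, so their counts are uncertain to that extent.

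Immediate early and dissociation-response genes held 2.02% ± 0.136 of the counts and summed to 24173 TPM. Fosb, a subunit of the AP-1 transcription factor, had 3413, 3314, 3466 and 3791 normalized CPM and ranked among the 25 largest shares. Jun, its partner, had 1700, 1805, 1976 and 1789, and Atf3, a stress-induced factor, 1747, 1497, 1508 and 1775. Egr1, a growth-signal factor, had 885, 908, 1313 and 957 and was highest in WT library 3, as was Ccn1, a matricellular protein, with 1015, 1097, 1284 and 1154. Of 29 genes with at least 100 counts, 20 were highest in WT library 3, where 27.3% of all such genes were highest. Outside this list Thbs1, the matrix protein thrombospondin, took the seventh largest share, with 4309, 4295, 4538 and 4412. As background, immediate early genes are switched on quickly by stress and growth signals, tissue dissociation among them; no library of undissociated lung was analysed here, and its part in these levels was not tested.

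Markers of other lung cells were present next to those of AEC2. In bulk RNA, fewer cells of a type and less RNA per cell cannot be told apart. In normalized CPM, which is not adjusted for length, Scgb1a1 of club cells had 2642, 2860, 2913 and 3308, Ager of type 1 cells 1007, 856, 799 and 891 and Foxj1 of ciliated cells 243, 256, 334 and 360. Acta2 of smooth muscle had 89.4 to 177, Col1a1 of fibroblasts 64.9 to 101, Msln of mesothelium 139 to 190 and Pecam1 of endothelium 24.0 to 33.6. Among blood cell markers, Cd79a of B cells had 2.99 to 4.87 and S100a8 of neutrophils 0.709 to 5.15. Krt5 and Trp63 of basal cells, Marco and Siglecf of alveolar macrophages, Cd3e of T cells and Hba-a1 of red cells were not among the measured genes. Of 34 macrophage and dendritic markers looked for, 20 were measured. Among myeloid genes named after their values were seen, Csf1r had 19.9 to 38.5, Itgam 7.78 to 17.9 and Itgax 3.32 to 9.79.

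**Figure D3:**
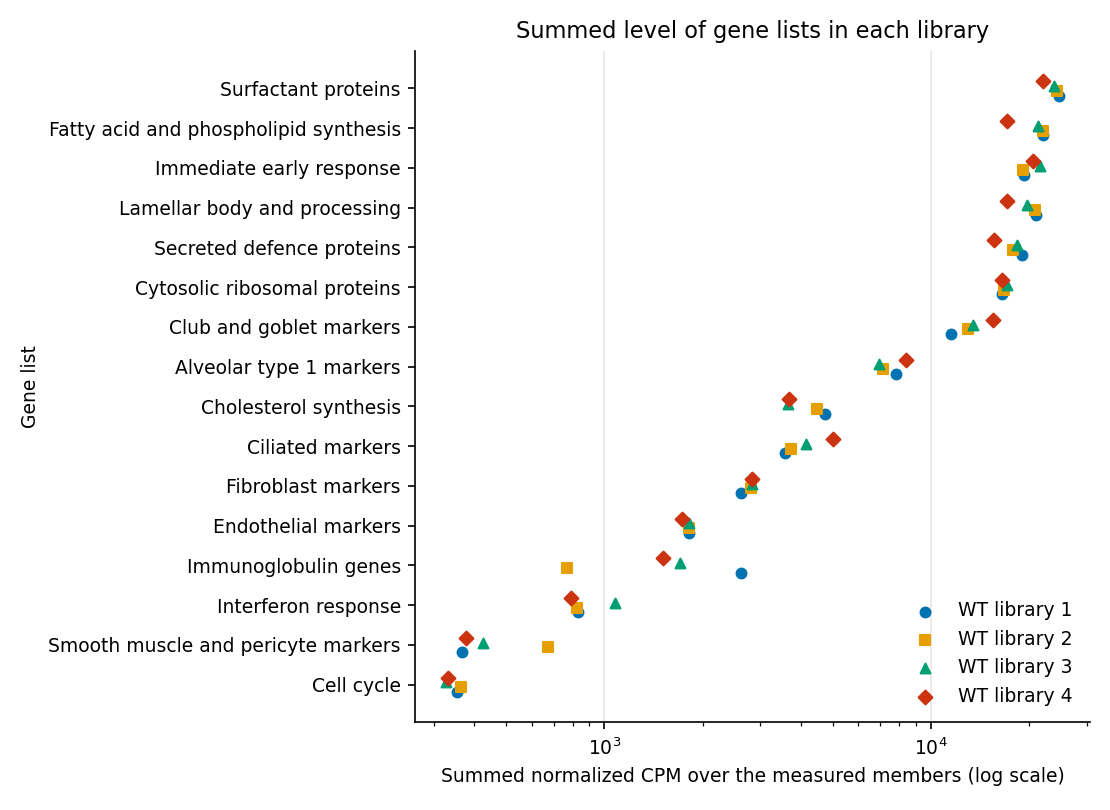
Summed normalized CPM over the measured members of 16 gene lists (horizontal axis, log scale), 1 point per WT library. WT library 4 is the lowest for fatty acid and phospholipid synthesis (17144) and the highest for club and goblet markers (15560) and ciliated markers (5033).

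Airway markers differed between libraries in 1 order. Club and goblet markers summed to 11567, 13008, 13427 and 15560 normalized CPM (1.34% ± 0.183 of counts), and 16 of 17 genes with at least 100 counts were highest in WT library 4, where 25.8% of all genes were highest. Without the members that another list also holds, the sums were 9412, 10441, 10819 and 12479. Ciliated markers summed to 3578, 3720, 4146 and 5033, and all 19 such genes were highest in WT library 4. Dnah5, a motor of the ciliary arm, had 137, 145, 156 and 210. Mesothelial markers were highest in WT library 4 for 8 of 8 genes, with Upk3b at 117, 150, 143 and 181. For these 3 lists the highest library was WT 4 and the lowest WT 1 under each of 4 scalings. WT library 4, highest for airway and mesothelial markers, was also lowest for surfactant proteins on the authors' scaling and lowest for lipid synthesis. Whether a larger share of other cells bears on those levels was not tested.

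The most uneven of the club and goblet genes with at least 100 counts was a goblet cell gene. Clca1, a secreted protein of mucus-producing goblet cells, had 181, 200, 950 and 3876 counts, or 10.1, 11.1, 51.8 and 234 normalized CPM, the widest spread outside the immunoglobulins among genes with a mean of at least 100 counts (CV beyond counting 139%). It stayed past the 30% mark without any single library (97.7 to 152%). Muc5ac, a gel-forming mucin, had 11.98, 11.5, 13.5 and 30.2, and without WT library 4 its CV beyond counting was 5.28% in place of 53.1%. Bpifb1, an airway defence protein, had 33.9, 64.3, 59.97 and 103, and Reg3g, an antibacterial lectin, 42.1, 25.1, 42.1 and 62.0. Muc5ac, Bpifb1 and Reg3g are named because they complete, with Clca1 and Bpifa1, the 5 of 17 members past the mark. They were chosen after their values were seen. Of all 11219 genes tested, 1.14% passed the mark. Reg3g dropped below it without WT library 2 (23.4%) or WT library 4 (26.7%).

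Type 1 cell markers split the libraries in another way, with WT libraries 1 and 4 above 2 and 3. The list summed to 7818, 7145, 6941 and 8397 normalized CPM. Akap5, a kinase-anchoring protein, had 107, 52.4, 42.1 and 135, Rtkn2 43.9, 17.3, 16.3 and 53.2, and Col4a3, a basement membrane collagen, 126, 70.5, 72.5 and 138. Spock2 (151, 89.2, 70.8 and 188) and Igfbp2 (44.7, 23.2, 20.6 and 43.2), chosen after their values were seen, completed the 5 of 21 genes past the 30% mark. Of all 11219 genes tested, 1.14% passed the mark. All 5 of these type 1 genes stayed past it without any single library. Hopx, also a type 1 marker, had 99.0, 74.1, 76.0 and 123, and Pdpn 34.4, 26.8, 23.5 and 38.3. Ager, a defining marker of type 1 cells, did not follow WT library 4: it was highest in WT library 1. Of 21 genes, 14 were highest in WT library 4, where 25.8% of all genes were highest. In WT library 3, 14 were lowest, against 22.9% of all genes.

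Smooth muscle and pericyte markers were highest in WT library 2. Their sum was 367, 670, 424 and 378 normalized CPM. All 12 genes with at least 100 counts were highest in WT library 2, where 21.6% of all such genes were highest. Of the 12, 5 passed the 30% mark, against 1.14% of all such genes. Acta2, smooth muscle actin, had 89.4, 177, 102 and 93.8, and Myh11, smooth muscle myosin, 93.9, 183, 102 and 92.1. Without WT library 2 the CV beyond counting was 6.38% in place of 35.5% for Acta2 and 4.62% in place of 37.0% for Myh11. Cspg4, a pericyte marker, had 7.27, 15.4, 8.50 and 6.99, and Des and Actg2, named after their values were seen, were the other 2 of the 5 genes past the mark. Without WT library 2 these 3 had 6.10, 25.4 and 19.8%, and Actg2 was also below the mark without WT library 1 (28.5%) and Des without WT library 4 (29.5%). Fibroblast markers were lowest in WT library 1 for 19 of 24 genes, where 25.3% of all genes were lowest. In WT library 3, 15 of 24 were highest, against 27.3% of all genes.

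Interferon-response genes were highest in WT library 3. The list of 34 genes summed to 831, 824, 1080 and 793 normalized CPM. Of 28 genes with at least 100 counts, 23 were highest in WT library 3, against 27.3% of all such genes. The 30% mark was passed by 5 of the 28, against 1.14% of all such genes. Gbp2, an interferon-induced GTPase, had 35.2, 31.9, 85.3 and 34.4, and Iigp1, an immunity-related GTPase, 5.71, 3.54, 16.6 and 4.04. Gbp3, Igtp and Ifit1, chosen after their values were seen, were the other members past the mark. Without WT library 3, the CV beyond counting was 2.87% for Gbp2 and 22.95% for Iigp1, and the other 3 were also below the mark, Ifit1 at 10.1% and Igtp at 11.7%. Irf1, a transcription factor of this response, had 146, 153, 211 and 142, and Ifitm3, an antiviral membrane protein, 46.4, 52.97, 80.3 and 58.0.

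Across all genes the 4 libraries were close. The median CV over the 11219 genes with a mean of at least 100 counts was 6.94%. Counting alone gives a median of 3.84%, and the median CV beyond counting was 5.30%. Of these genes, 19.01% varied less than counting alone gives. Between any pair of libraries the median absolute log2 difference was 0.07 to 0.12, and 40 to 52 genes differed by over 2-fold. The median difference was smallest between WT libraries 1 and 2. In all, 128 genes passed the 30% mark, of which 33 were immunoglobulin genes and 95 other protein-coding genes. Of the 128, 43 stayed past it whichever library was left out. Genes of low count passed more often: 74 of the 2864 genes with a mean of 100 to 300 counts passed the mark. Of the 4008 genes with a mean of 1000 to 10000 counts, 19 passed it.

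**Figure D4:**
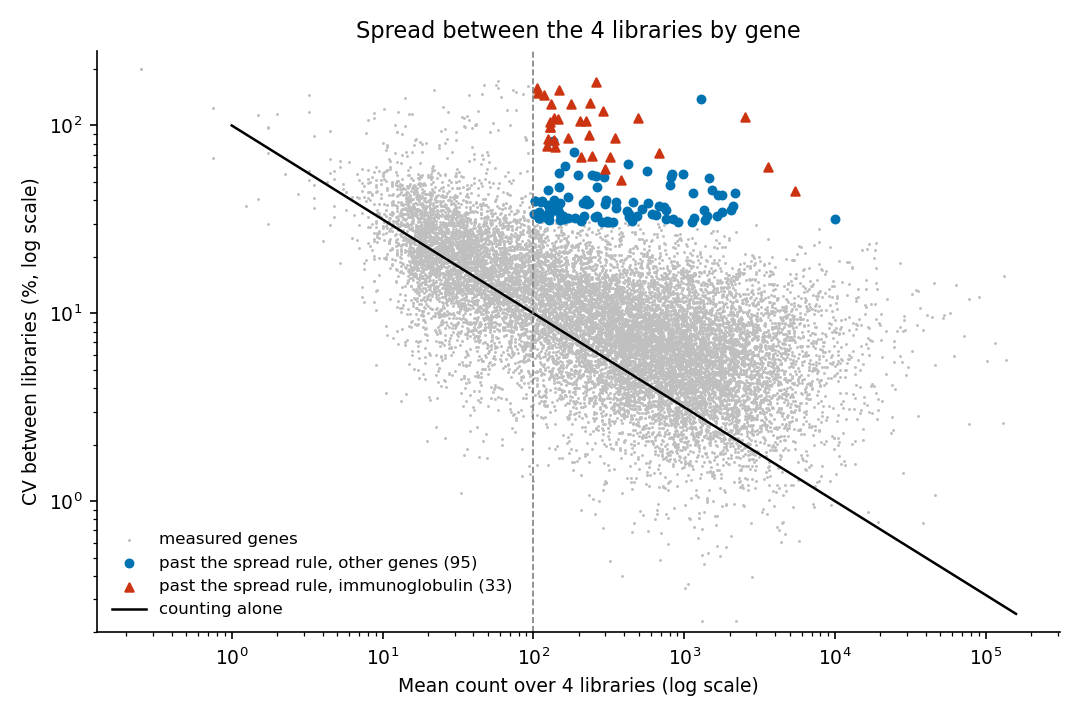
CV between the 4 WT libraries (vertical axis, %, log scale) against the mean count (horizontal axis, log scale), 1 point per gene; the black line is the CV that counting alone gives and the dashed line the minimum of 100 counts. Red triangles are the 33 immunoglobulin genes and blue points the 95 other genes past the 30% mark.

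Immunoglobulin genes, the antibody genes of plasma and B cells, had the highest median CV beyond counting of the lists (97.5%). Among all measured genes, 111 variable and 8 constant genes carried the immunoglobulin annotation. The list was picked by symbol and had 120 measured genes, so not all of them carried it. These 120 genes took 0.165% ± 0.0745 of the counts and summed to 2623, 771, 1700 and 1516 normalized CPM. Of 35 with a mean of at least 100 counts, 33 passed the 30% mark, which 1.14% of all 11219 such genes passed. That minimum is a mean over the same libraries, so a gene high in 1 library can meet it through that library alone. The 33 of 35, the median CV and the tally of highest libraries given below all depend on that choice. Igkc, the kappa constant chain, had 473, 144, 322 and 277, highest in WT library 1 and lowest in WT library 2, and its CV beyond counting was 28.7% without WT library 2 in place of 44.6%. Ighg2c, a heavy chain constant gene, had 377, 26.1, 77.2 and 91.2. Igha, of the mucosal antibody class, was the most even of the abundant ones, with 611, 311, 418 and 425, and did not pass the mark (28.3%), though it did without WT library 3 (33.7%) or WT library 4 (34.1%).

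Variable segments differed from library to library. Igkv13-85 had 924, 93, 18 and 5 counts, with nearly all in WT library 1, and was the most variable of the genes with a mean of at least 100 counts (CV beyond counting 171%). Igkv17-127 had 1.40, 0.443, 19.2 and 2.77 normalized CPM and Ighv8-8 1.18, 1.38, 27.1 and 3.08, both highest in WT library 3. Ighv2-5 had 5.15, 0.277, 0.5997 and 21.9, highest in WT library 4. Of the 33 genes past the mark, 17 were highest in WT library 1, 11 in WT library 3, 4 in WT library 4 and 1 in WT library 2. Over all 11219 genes tested, the shares were 25.2, 27.3, 25.8 and 21.6% in that order. Jchain, which joins secreted antibodies, had 140, 47.9, 73.9 and 81.3, and a CV beyond counting of 25.8% without WT library 1 in place of 45.4%. Ptprc and Cd79a were beside these at 6.03 to 8.84 and 2.99 to 4.87 normalized CPM, and the part of blood cells in these counts was not tested. Variable segments resemble each other, so the split of reads among them is uncertain.

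**Figure D5:**
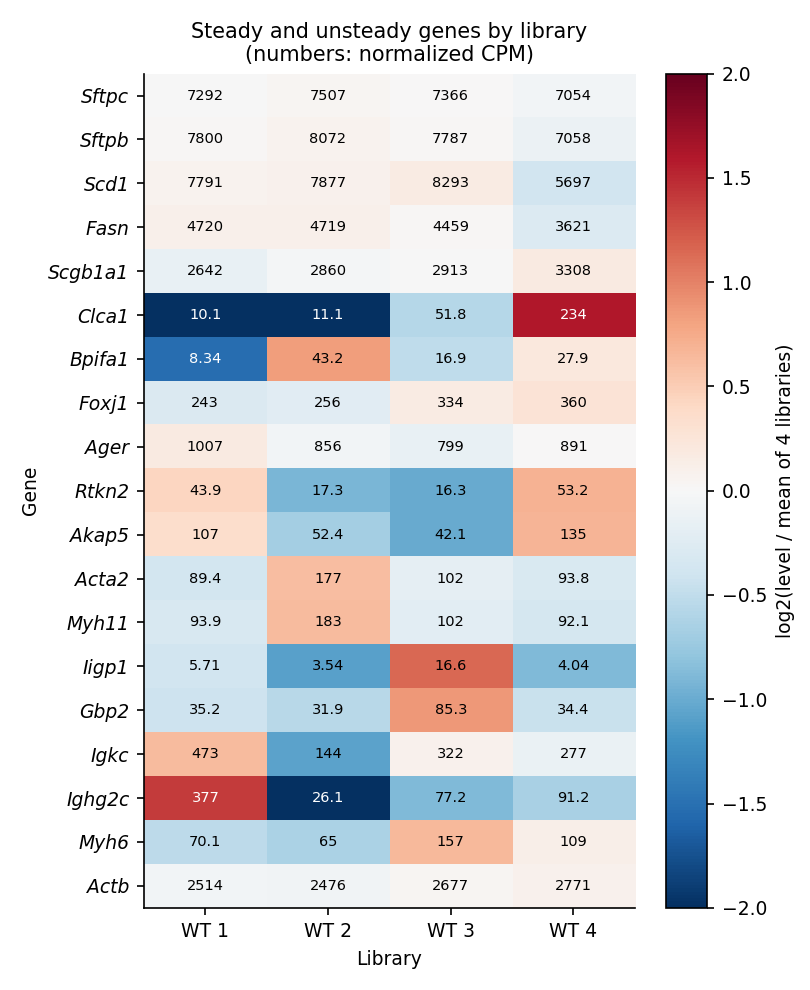
Level of 19 genes (rows) in the 4 WT libraries (columns); colour is log2 of the level over the gene's mean of 4 libraries, and printed numbers are normalized CPM. Sftpc runs from 7054 to 7507, whereas Clca1 runs from 10.1 in WT library 1 to 234 in WT library 4.

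Heart muscle genes formed a small further group. Myh6, the atrial-type myosin heavy chain of mouse heart, had 70.1, 65.0, 157 and 109 normalized CPM, Tnnt2, cardiac troponin T, 14.997, 13.2, 30.5 and 20.6, and Myl7, an atrial myosin light chain, 18.6, 16.1, 28.7 and 24.1. Actc1, cardiac actin, had 22.3, 30.9, 41.2 and 31.7. All 4 were highest in WT library 3, the highest library for 27.3% of all genes with at least 100 counts. They belong to a list of genes of other tissues that had 5 members with at least 100 counts. Of these 5, 4 were highest in WT library 3 and 1 in WT library 2, where 21.6% of all such genes were highest. Myh6 and Tnnt2 passed the 30% mark, and without WT library 3 they were at 29.5 and 22.95%. In the mouse, heart-type muscle also surrounds the pulmonary veins, and the source of these transcripts was not tested.

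At the other end, some genes were steadier than counting alone gives. Arl8b, a GTPase that moves lysosomes, had 2233, 2253, 2287 and 2061 counts and a CV of 0.229%, where counting gives 2.13%. Nbas, a tethering protein of transport from Golgi to endoplasmic reticulum, had a CV of 0.230%, and Mtrex, an RNA helicase of RNA decay, and Anp32a, a chromatin-associated protein, had 0.362 and 0.395%. As 19.01% of all genes fell under the counting value, these are the low end of a common range. Among abundant genes, Eef2 (0.765%), Lama5, a laminin chain of the basement membrane (0.879%), and Eef1a1 (1.07%) also had low CVs. Their CVs beyond counting were 0.568, 0.403 and 0.967% over the 4 libraries. The value fell to 0 for Eef2 and Eef1a1 without WT library 3 and for Lama5 without WT library 4. Whether these 3 genes varied more than counting alone gives was not tested.

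Exon length and exon number were also compared. The 100 genes of largest TPM had a median exon length of 2214 bases, against 4013 over all named genes; TPM itself divides by that length. The 100 genes of largest share of counts had a median exon length of 4295 bases. The 128 genes past the 30% mark had a median of 4 exons, against 7 over all 16017 named genes, which include genes under 100 counts. Of the 128, 33 were immunoglobulin genes, and their part in that median was not tested.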

How the data were processed

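RNA from 4 SP-C WT libraries of isolated AEC2 was analysed, and the other 8 libraries were not. Per the submitters' processing notes, STAR, limma and the mm10 genome were used, without versions; which counting tool, annotation and strand setting were used is not given in the sources used here. The authors deposited 1 log2 value per gene and library. From the values, these are log2 of a whole count plus 0.5, times 1 factor per library. Whole counts were recovered for 100% of values within 1e-06. Few listed genes had no count, so the files hold hardly any unexpressed genes, and no filter was added. Symbols, coordinates and exon lengths came from GENCODE release M21 (GRCm38), which named 16017 identifiers and left 63 without a symbol.

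Levels were computed with Python 3.11.15 and pandas as normalized CPM, share of counts and TPM over the union of exons. The variance expected from Poisson counting was taken off the squared CV. With 1 group there is no contrast, and no test between groups was made; single libraries were screened by Dixon's criterion. Depth gave 1 read a value of 0.0548 to 0.0612 CPM. The spread computation was tested on simulated counts. Named genes were those of largest share, TPM and spread, the steadiest, and the leading and most variable members of 58 gene lists; pseudogenes and predicted genes were left unnamed apart from 1 named after its values were seen, and a few selected genes are not reported here. The members and lists were chosen with earlier results of these data known. Alternatives were other scalings, count minimums, gene lengths and denominators, a log2 measure of spread, and each library left out.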

Additional observations from a re-analysis of the deposited data

Results flagged for a closer look

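Of 82 genes and list sums examined, 4 list sums had 1 library apart from the other 3 by Dixon's criterion (gap to the nearest library over the range); chance flags about 1 in 20 groups. Lung epithelial transcription factors summed to 7473, 7439, 7443 and 6928 normalized CPM in WT libraries 1 to 4, with WT library 4 low. Glycolysis genes summed to 3058, 3057, 3172 and 3067, with WT library 3 high. Interferon-response genes summed to 831, 824, 1080 and 793, with WT library 3 high. Endothelial markers summed to 1812, 1816, 1814 and 1725, with WT library 4 low; most of that sum is Epas1 (1446, 1448, 1404 and 1284), a hypoxia-inducible factor. In contrast, the endothelial marker Pecam1 was highest in WT library 4 (33.6). Only the interferon-response sum met the criterion under all 4 scalings. The transcription factor and endothelial sums met it on the authors' scaling and with median of ratios but not with library totals (gap over range 0.706 and 0.437) or quantile normalization (0.518 and 0.640). The glycolysis sum met it on the authors' scaling alone (0.417, 0.721 and 0.365 with library totals, median of ratios and quantile normalization).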

How the results depend on the processing

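No paired analysis was possible because a single group was described and there was no contrast to pair. Of 617 values recomputed under an alternative, 567 moved by less than the spread between libraries or, for counts of genes and for CVs, by less than 1.5 times, and 50 moved by more. Shares of the gene lists, the number of genes that hold 50% of the counts and the per-length sum of surfactant proteins stayed within those limits under every alternative run for them. Marker sums were less stable: without members that another list holds, 7 sums moved by more than those limits and 2 did not. The number of genes past the 30% mark was 437 with a minimum of 20 counts and 36 with a minimum of 500 counts, in place of 128. It was 123 to 130 under the other scalings, with 119 to 127 shared, and 134 to 158 without 1 library, with 95 to 102 shared. Of the immunoglobulin genes past the mark, 27 of 33 stayed past it whichever library was left out. Without WT library 1, Ighv3-6 (7.71%), Igkv1-110 (27.6%) and Ighv1-9 (28.9%) dropped below the mark. Marker sums without members that another list holds were chosen after seeing the data, as were 2 of the scalings of list sums. Depth limits the spread of genes under 100 counts, for which counting alone gives a CV of 10% or more.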

Other observations

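Genes of mitochondria and protein turnover were most often highest in WT library 3, as were the ribosomal protein, immediate early and interferon-response genes of the report. Among nuclear-encoded subunits of oxidative phosphorylation, 47 of 78 genes with at least 100 counts were highest in WT library 3, among mitochondrial ribosomal proteins 45 of 74 and among proteasome subunits 21 of 37, where 27.3% of all such genes were highest. The sums differed little: 5355, 5337, 5566 and 5226 normalized CPM for oxidative phosphorylation, 1356, 1366, 1478 and 1398 for mitochondrial ribosomal proteins, and 2441, 2396, 2581 and 2504 for the proteasome. WT library 3 was the highest for these 3 sums under each of 4 scalings. Endoplasmic reticulum chaperones had another order. Of 39 genes, 27 were highest in WT library 1, against 25.2% of all genes with at least 100 counts. In WT library 4, 23 of 39 were lowest, against 31.0% of all such genes.

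Cytosolic heat shock genes were highest in WT library 4 for 14 of 22 genes, where 25.8% of all genes were highest. Among the 14 were Hsph1, a disaggregase partner of HSP70, with 74.3, 70.2, 79.97 and 121 normalized CPM, and Hspa4l, of the same family, with 207, 208, 189 and 261. Iron, redox and glutathione genes took 1.35% ± 0.0727 of the counts (SD, n = 4), with Gclc, which limits glutathione synthesis, at 1566, 1483, 1439 and 1645, and Ftl1, the ferritin light chain, at 980, 967, 1000.4 and 1035. Nuclear long noncoding RNAs took 0.244% ± 0.0159, led by Malat1 with 1103, 1097, 1047 and 1141 and Neat1 with 524, 476, 458 and 601.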
